A study of Bos taurus with 4 samples.

Results

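Genes known to switch on in fetal or repairing gut epithelium were examined in 4 bovine RNA libraries. Small intestine, muscle, and intestinal organoids at passage 5 (P5) and passage 10 (P10) gave 1 library each. The genes were chosen by symbol. PHLDA1, ANXA1, ANXA3, CLU, SPP1, IL33, AMOTL2 and S100A11 each matched 1 of the 29792 rows of the deposited counts, and S100A6, the ninth gene of the list, was not analysed here. All samples were labelled Hanwoo cow, a Korean cattle breed, and the organoids were grown in Matrigel with IntestiCult medium from jejunal crypts of healthy animals older than 24 months. Neither the animals behind each library nor whether both passages came from 1 culture is given in the sources used here. With 1 library per sample type, no difference has a replicate check, no test was made, and passage and culture cannot be told apart.

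The lining of the adult small intestine is renewed by Wnt-dependent stem cells at the base of the crypts. After injury, the epithelium can pass through a transient state that resembles the fetal gut. In mice this state is recognised by secreted clusterin (CLU), annexins, S100 proteins and targets of the Hippo pathway effector YAP, and crypt cells placed in culture can enter it as well. Since several of these genes are also used by fibroblasts, macrophages, endothelium and muscle, their level in whole tissue is a sum over cell types, and in bulk samples fewer cells of a type and less RNA per cell cannot be told apart.

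QuantSeq, which reads polyadenylated transcripts from their 3′ end, gave 12917720 to 17776273 counted reads per library. Levels are given as reads and as CPM, reads scaled to a common library total, and differences as log2 differences of quantile-normalised counts plus 1. Intervals in brackets after differences, ratios, levels and shares are 95% intervals of counting error alone. Epithelial identity was clear in the organoids. The 12 epithelial marker genes, such as EPCAM and KRT8, had a summed level of 13199 CPM at P5, 10687 at P10, 5207 in intestine and 35.3 in muscle. Markers of other cells were low in the organoids. The 12 stromal markers summed to 1231 CPM in intestine, 7.06 in P5 organoids and 4.46 in P10 organoids, with COL3A1, DCN and LUM at 0 reads in both cultures. The 15 immune markers summed to 6716 CPM in intestine, against 19.5 in P5 and 25.7 in P10 organoids. The 9 smooth muscle markers summed to 2616, 29.8 and 59.5 CPM in the same order, and the 10 endothelial markers to 70.6, 4.85 and 3.67 CPM. In muscle, the 12 skeletal muscle markers summed to 55108 CPM, and the 18S ribosomal RNA gene RN18S1 held 23.6% of reads, against at most 4.81% elsewhere.

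The regenerative genes did not move as a block. In P5 organoids 3 of the 8, PHLDA1, ANXA1 and CLU, exceeded their intestine level by 2-fold or more, and none was at least 2-fold lower. Among all 17783 genes that reached 10 reads in one of the libraries compared, 24.9% were at least 2-fold higher and 22.8% at least 2-fold lower. In P10 organoids 6 of the 8 were higher by 2-fold or more, against 28% of all genes, and none was at least 2-fold lower, against 26.1%. The median log2 difference of the 8 genes from intestine was 0.80 in P5 and 1.20 in P10 organoids, where that of all genes was 0.11 in both. The count of 6 in P10 organoids includes SPP1, which had 16 reads in both libraries. It was 5 with library totals and 4 with edgeR's TMM or upper-quartile scaling. All of these comparisons share the intestine library. Over all genes, the share of those past 2-fold that were higher in P5 organoids was 52.3% with quantile normalisation and 40.5% with TMM, and in P10 organoids it was 51.7% and 41.0%.

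**Figure D1:**
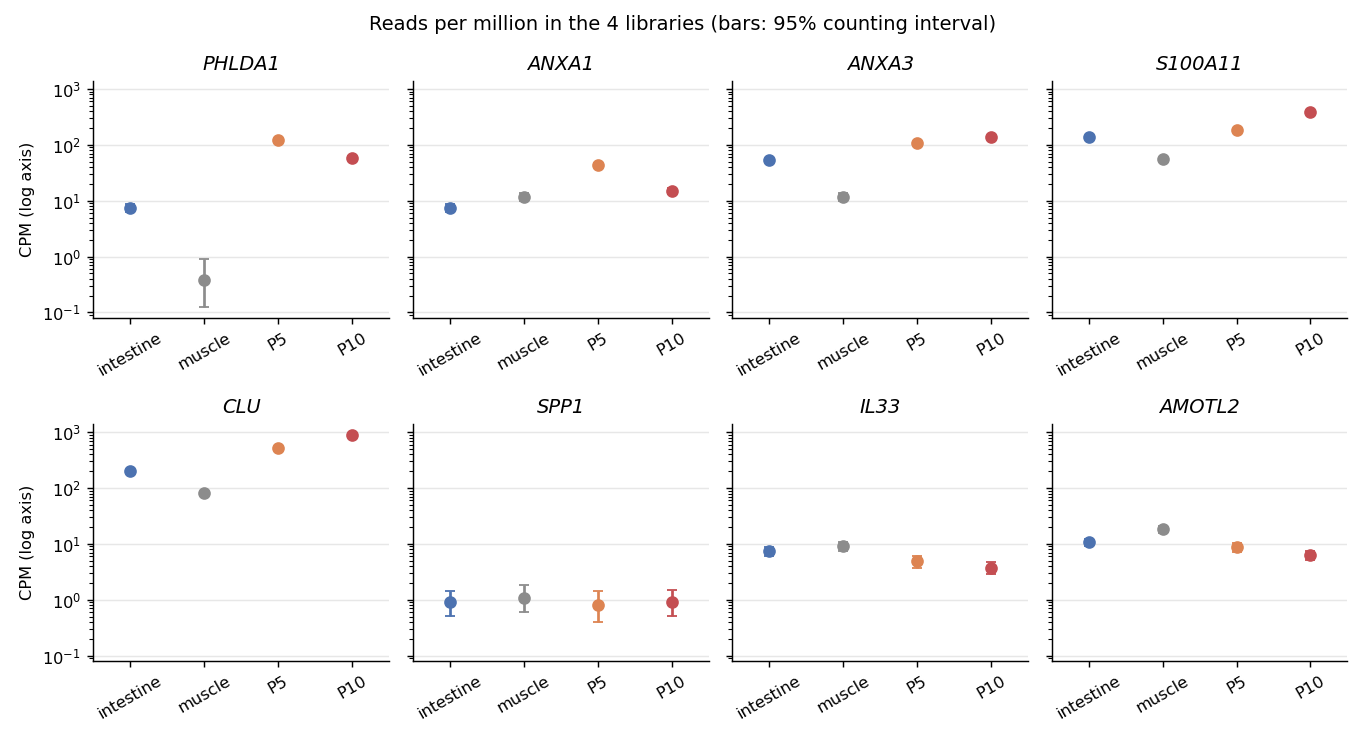
Level of each of the 8 genes in the 4 libraries as CPM on a log axis, with 1 library per point and bars for the 95% counting interval. PHLDA1 ran from 0.387 CPM in muscle to 123 CPM in P5 organoids, while the SPP1 intervals overlapped in all 4 libraries.

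PHLDA1, a pleckstrin homology-like domain protein that marks crypt base cells and cells in repair, differed most from the tissues of the 8 genes. It was counted with 133 reads for intestine (7.48 CPM), 5 for muscle (0.387 CPM), 1677 for P5 organoids (123 CPM) and 1041 for P10 organoids (58.7 CPM). Both organoid libraries were therefore above intestine, and intestine was above muscle. The log2 difference from intestine was 4.15 (3.82 to 4.50) in P5 organoids and 3.00 (2.67 to 3.36) in P10 organoids. P10 organoids were below P5 organoids, with a CPM ratio of 0.476 (0.440 to 0.515). The order of the 4 libraries was P5, P10, intestine and muscle, and each neighbouring pair differed beyond counting error.

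The annexins bind membrane phospholipids in the presence of calcium. ANXA1, whose secreted form limits inflammation and promotes wound closure, was counted with 131 reads for intestine (7.37 CPM), 149 for muscle (11.5 CPM), 598 for P5 organoids (44.0 CPM) and 269 for P10 organoids (15.2 CPM). P5 organoids were highest and the tissues lowest in CPM. After quantile normalisation P5 organoids were only 0.59 (0.36 to 0.83) above muscle on the log2 scale, and muscle lay above P10 organoids. The log2 difference from intestine was 2.68 (2.34 to 3.05) in P5 and 1.07 (0.71 to 1.46) in P10 organoids, and with TMM the second was under 2-fold, at 0.79. ANXA3, another annexin, was counted with 945 reads for intestine (53.2 CPM), 152 for muscle (11.8 CPM), 1477 for P5 organoids (109 CPM) and 2452 for P10 organoids (138 CPM). Here P10 organoids were the highest, and the log2 difference from intestine was 0.82 (0.69 to 0.93) in P5 and 1.15 (1.04 to 1.27) in P10 organoids. The P5 difference was just past 2-fold with library totals, at 1.03. The annexin pair thus went opposite ways between the passages. The CPM ratio of P10 and P5 organoids was 0.345 (0.298 to 0.399) for ANXA1 and 1.27 (1.19 to 1.36) for ANXA3.

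Other annexins also differed from one another. Of 10 with at least 10 reads in P5 organoids or intestine, 5 were at least 2-fold higher at P5, against 24.9% of all genes. At least 2-fold lower were 2, against 22.8% (median log2 difference of the 10 genes 0.70). In P10 organoids 2 of 9 were higher, against 28%, and 3 lower, against 26.1%. Their median was -0.62, or -0.50 with libraries under 3 reads set to 3. ANXA4, an epithelial annexin, was 1.92 higher on the log2 scale in P5 and 1.25 higher in P10 organoids. ANXA11 was 1.38 and 1.62 higher. ANXA5, the protein used to detect dying cells, was lower, by log2 differences of -1.42 and -1.31. ANXA6 had 1042 reads in intestine and 644 in muscle, against 1 at P5 and 6 at P10, near none in both cultures as were the stromal markers. Since 3′ reads do not scale with transcript length, the family could also be read within a library. ANXA1 made up 0.786% (0.657 to 0.932) of the reads of 12 annexins in intestine, 2.56% (2.36 to 2.77) in P5 organoids and 1.18% (1.05 to 1.33) in P10 organoids. ANXA3 made up 5.67% (5.32 to 6.03), 6.33% (6.02 to 6.65) and 10.8% (10.4 to 11.2). In muscle ANXA1 made up 3.30% (2.80 to 3.87) and ANXA3 3.37% (2.86 to 3.94), so that the ANXA1 share was largest in muscle and the ANXA3 share in P10 organoids.

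S100A11 is a small calcium-binding protein and a binding partner of ANXA1. It was counted with 2458 reads for intestine (138 CPM), 713 for muscle (55.2 CPM), 2556 for P5 organoids (188 CPM) and 6889 for P10 organoids (389 CPM). The P10 library was the high one, and P5 organoids lay close to intestine. The log2 difference from intestine was 0.23 (0.14 to 0.30) in P5 and 1.33 (1.26 to 1.39) in P10 organoids. P10 organoids had 2.07 times (1.98 to 2.16) the CPM of P5 organoids, while ANXA1 was lower there.

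The S100 family had a different make-up in tissue and culture. S100G, the calbindin that carries calcium through absorptive cells, had 69863 reads in intestine and none in either organoid library. It was at least 14331-fold lower in P5 and at least 8401-fold lower in P10 organoids, counted against 3 reads. S100A2, an epithelial member, had 91 reads in intestine, 2926 in P5 organoids and 2102 in P10 organoids, with log2 differences of 5.65 and 4.77. It also had 880 reads in muscle, from which the organoids differed by 0.72 and -0.16. S100A16 was 2.10 and 1.48 higher than in intestine on the log2 scale, but -1.07 and -1.69 from muscle. S100A4, typical of fibroblasts and leukocytes, was lower than in intestine, by -2.49 and -2.93. Of 12 other S100 genes with at least 10 reads in P5 organoids or intestine, 6 were at least 2-fold higher at P5 and 6 lower. The shares of all genes were 24.9% and 22.8%. In P10 organoids 5 of these S100 genes were higher and 6 lower, against 28% and 26.1% of all genes. The median log2 difference of the S100 genes was 0.25 in P5 and -0.30 in P10 organoids, but 0.68 and 0.70 with libraries under 3 reads set to 3. Without S100G, S100A11 took 39.2% (38.5 to 39.9) of the S100 reads at P10, 16.8% (16.2 to 17.4) at P5, 30.2% (29.2 to 31.3) in intestine and 5.22% (4.85 to 5.61) in muscle. Leaving out S100G was decided after its values were seen.

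**Figure D2:**
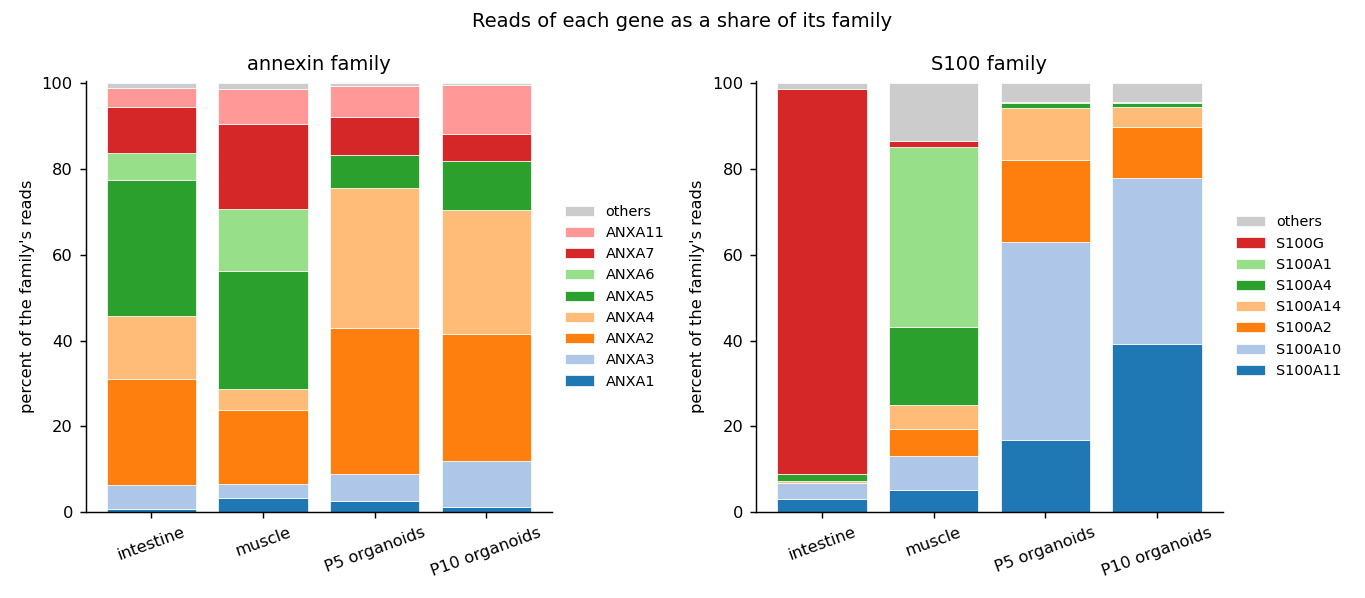
Reads of each gene as a percentage of the reads of its family in each library, for 12 annexins and 15 S100 genes, without S100A6. S100G fills 89.6% of the S100 reads in intestine and none in the organoids, where S100A10 is the largest part at P5 (46.2%). At P10 the intervals of S100A11 (39.2%, 38.5 to 39.9) and S100A10 (38.6%, 37.9 to 39.3) overlap.

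CLU encodes clusterin, a secreted chaperone that marks the revival stem cells of injured mouse crypts. It was counted with 3601 reads for intestine (203 CPM), 1051 for muscle (81.4 CPM), 7176 for P5 organoids (528 CPM) and 15613 for P10 organoids (881 CPM). Both cultures were above both tissues, and P10 organoids were the highest. The log2 difference from intestine was 1.22 (1.17 to 1.29) in P5 and 1.83 (1.79 to 1.89) in P10 organoids, and P10 organoids had 1.67 times (1.62 to 1.72) the CPM of P5 organoids.

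Lipoprotein receptors that can bind clusterin were higher in the cultures than in intestine. LRP8 had 10 reads in intestine and 1 in muscle, against 658 at P5 and 1416 at P10, with log2 differences from intestine of 7.02 (6.04 to 7.91) and 7.67 (6.70 to 8.57). VLDLR had 50, 156, 202 and 460 reads in the same order, and was 2.86 and 3.51 higher than in intestine on the log2 scale, but -0.96 and -0.32 from muscle. LRP2, the endocytic receptor megalin, had only 1 read in intestine against 17 at P5 (1.25 CPM) and 11 at P10 (0.620 CPM). Its log2 differences were 4.15 (2.60 to 4.87) and 3.56 (2.10 to 4.26), or 3.48 and 2.88 with intestine set to 3 reads.

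SPP1, which encodes osteopontin, a matrix glycoprotein of macrophages and injured epithelium, was barely detected. It was counted with 16 reads for intestine (0.900 CPM), 14 for muscle (1.08 CPM), 11 for P5 organoids (0.809 CPM) and 16 for P10 organoids (0.902 CPM). No pair of neighbouring libraries differed beyond counting error in CPM. The log2 difference of 1.24 (0.27 to 2.25) between P10 organoids and intestine belongs to the normalisation, since the same 16 reads had a log2 value of 4.29 in P10 organoids and 3.04 in intestine. The CPM ratio was 1.003 (0.469 to 2.14), so a difference was not detectable at this depth. The integrin subunits that bind osteopontin were in no case 2-fold higher in the cultures. ITGB3 had log2 differences from intestine of -5.60 in P5 and -4.90 in P10 organoids, ITGAV had differences of -1.19 and -1.78, ITGB1 of -0.43 and -1.07, and ITGA9 of -0.63 and -2.17. ITGB5 was within 2-fold in both.

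IL33 encodes an alarmin, a nuclear cytokine released by damaged barrier cells. It was counted with 130 reads for intestine (7.31 CPM), 118 for muscle (9.14 CPM), 66 for P5 organoids (4.85 CPM) and 67 for P10 organoids (3.78 CPM). The cultures lay below the tissues. The log2 difference from intestine was -0.28 (-0.73 to 0.18) in P5 and -0.60 (-1.03 to -0.15) in P10 organoids, and in CPM the ratio to intestine was 0.664 (0.486 to 0.899) and 0.517 (0.379 to 0.699). Neither muscle and intestine nor the 2 passages differed beyond counting error in CPM. IL1RL1, the IL-33 receptor carried by several immune cells, had 252 reads in intestine and 22 in muscle, against 4 at P5 and none at P10. Its co-receptor IL1RAP was within 2-fold, with log2 differences of -0.39 and -0.11, and AGER, a receptor for S100 proteins, had differences of 0.07 and 0.43. Over the 11 receptor genes with a row, 3 were at least 2-fold higher and 3 lower in P5 organoids, against 24.9% and 22.8% of all genes. In P10 organoids 3 were higher and 5 lower, against 28% and 26.1%. The medians of the receptor genes were -0.39 and -0.11. The formyl peptide receptors of ANXA1 were not analysed here.

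AMOTL2, an angiomotin that restrains YAP and is itself one of its targets, was counted with 190 reads for intestine (10.7 CPM), 236 for muscle (18.3 CPM), 118 for P5 organoids (8.68 CPM) and 111 for P10 organoids (6.26 CPM). Like IL33, it was lowest in the cultures. The log2 difference from intestine was -0.21 (-0.56 to 0.14) in P5 and -0.69 (-1.02 to -0.36) in P10 organoids, and with TMM the second passed 2-fold, at -1.01. Intestine and P5 organoids did not differ beyond counting error in CPM. The other YAP and TAZ targets were mostly lower too. Of 19 with at least 10 reads in P5 organoids or intestine, 13 were at least 2-fold lower in P5 organoids, against 22.8% of all genes. Only DOCK5, named after its value was seen, was at least 2-fold higher, against 24.9% (median log2 difference of the 19 genes -2.50). In P10 organoids 15 of 19 were lower, against 26.1%, and none was higher, against 28% (median -3.50). IGFBP3 had 3100 reads in intestine and 106 in muscle, against none at P5 and 22 at P10. CCN1, a matrix protein and widely used YAP target, had 286, 158, 0 and 15 reads, AXL had 402, 289, 2 and 0, and ARHGEF17 had 446, 23, 0 and 67. All 12 stromal markers were also at least 2-fold lower in both cultures, and the part of stromal cells in the YAP target values was not tested.

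**Figure D3:**
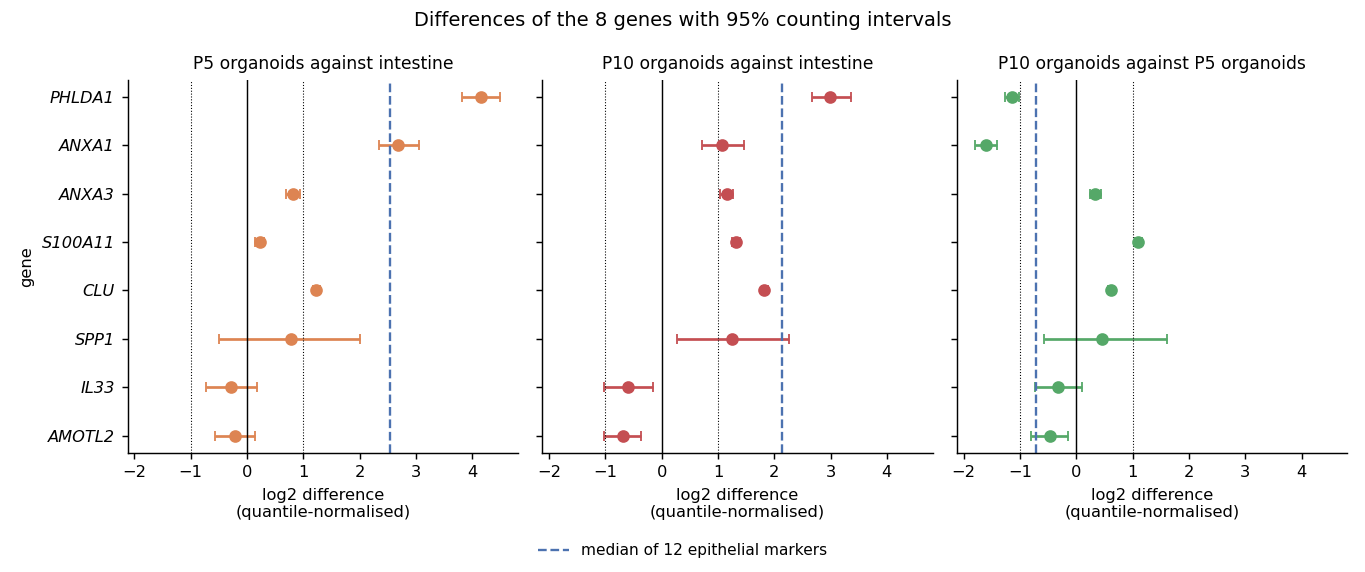
Log2 difference of each gene in 3 comparisons, with bars for the 95% counting interval, dotted lines at 2-fold and a dashed line at the median of the 12 epithelial markers. In P5 organoids against intestine PHLDA1 and ANXA1 lie at or beyond the epithelial median of 2.53, and in P10 organoids PHLDA1 alone lies beyond the median of 2.14.

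Because epithelial markers took a larger share of reads in the organoids than in intestine, the genes were also set beside them. The 12 markers had a median log2 difference from intestine of 2.53 in P5 and 2.14 in P10 organoids. Their range in P5 organoids was -1.77 (TFF3) to 6.36 (CDX2, with only 4 reads in intestine against 199). In P5 organoids PHLDA1 was 1.61 above the epithelial median and ANXA1 0.15 above it, while CLU was -1.31, ANXA3 -1.72, SPP1 -1.74, S100A11 -2.30, AMOTL2 -2.75 and IL33 -2.81 from it. In P10 organoids PHLDA1 was 0.85 above it and the other 7 were below it, from -0.32 for CLU to -2.83 for AMOTL2. When library totals were rescaled so that the median epithelial marker was level between intestine and each culture, an alternative chosen after seeing the data, 1 gene was higher by 2-fold or more at P5 and 6 at least 2-fold lower. The 1 higher gene was PHLDA1. In P10 organoids none was higher and 4 were lower on that scale, and CLU was -0.14. The median of all genes shifted to -2.41 and -2.14 with it. How much of each gene's reads in intestine came from epithelium was not measured.

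Between the passages 5 of the 8 genes stayed within 2-fold. Of the 8 genes, PHLDA1 and ANXA1 were at least 2-fold lower in P10 than in P5 organoids, against 16.6% of all genes, and S100A11 was at least 2-fold higher, against 16.1%. The log2 difference was -1.15 (-1.27 to -1.02) for PHLDA1, -1.61 (-1.81 to -1.41) for ANXA1 and 1.10 (1.04 to 1.17) for S100A11. CLU was 0.61 higher and ANXA3 0.34 higher on the log2 scale, both beyond counting error. AMOTL2 was -0.48 from P5 organoids, and the differences of IL33 and SPP1 were within counting error. With library totals, TMM, upper-quartile scaling or totals without RN18S1, PHLDA1 stayed between -1.18 and -1.07, ANXA1 between -1.64 and -1.53, and S100A11 between 0.94 and 1.05, which crosses the 2-fold line.

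Most other genes of the fetal-like and repair state were higher in P5 organoids than in intestine, as were most epithelial markers. With at least 10 reads in P5 organoids or intestine, 16 such fetal-like and repair genes were counted. Of these, 10 were at least 2-fold higher at P5, against 24.9% of all genes, and 4 lower, against 22.8%. Their median log2 difference was 1.73. In P10 organoids 7 were higher, against 28%, and 4 lower, against 26.1%, with a median of 0.82. Both medians lay below the 2.53 and 2.14 of the epithelial markers. KRT7, a keratin of simple epithelium that adult small intestine holds little of, had 55 reads in intestine and 0 in muscle, against 1224 at P5 and 1957 at P10 (log2 differences 5.23 and 5.50). PTGS2, the inducible cyclooxygenase, had 207 reads in intestine and none in the cultures. GJA1, a gap junction gene of stroma and muscle, had 954 reads in intestine, 10 in P5 organoids and 0 in P10 organoids. Between the passages none of 15 was at least 2-fold higher in P10 organoids, against 16.1% of all genes. At least 2-fold lower were 4, against 16.6%, with a median of -0.44 for the 15 where that of all genes was 0.06. The lower genes were EREG, AREG, EMP1 and GJA1, of which the first 3 were named after their values were seen. EREG and AREG, ligands of the EGF receptor, had log2 differences of -2.21 (-2.51 to -1.94) and -1.73 (-1.98 to -1.48), and EMP1, an epithelial membrane protein, of -2.22 (-2.28 to -2.15). Of the 12 crypt stem cell genes, 8 were at least 2-fold higher in P10 than in P5 organoids, against 16.1% of all genes. Another 3 were within 2-fold and 1 was lower, against 16.6%, with a median of 1.56 for the 12. The lower gene was LGR5, the receptor that marks crypt base stem cells, named after its value was seen, with 34 reads at P5 and 9 at P10 and a log2 difference of -1.70 (-2.46 to -0.90). Against intestine, 6 of these 12 were higher in P5 organoids, against 24.9% of all genes, and 1 lower, against 22.8%. In P10 organoids 10 of the 12 were higher, against 28%, and none lower, against 26.1%. Among them OLFM4 was 2.75 higher in P5 and 4.29 higher in P10 organoids on the log2 scale, EPHB2 2.05 and 2.95, AXIN2 1.97 and 2.68, and RNF43 1.99 and 2.03. LGR5 had 23 reads in intestine (1.29 CPM), with 2.50 CPM at P5 and 0.508 CPM at P10. Its log2 differences from intestine were 1.73 and 0.03, so it was not counted as lower at P10 although its CPM was lower there. The normalisation raised low P10 counts, since 1 read had a log2 value of 2.09 at P10 and 0.32 in intestine.

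**Figure D4:**
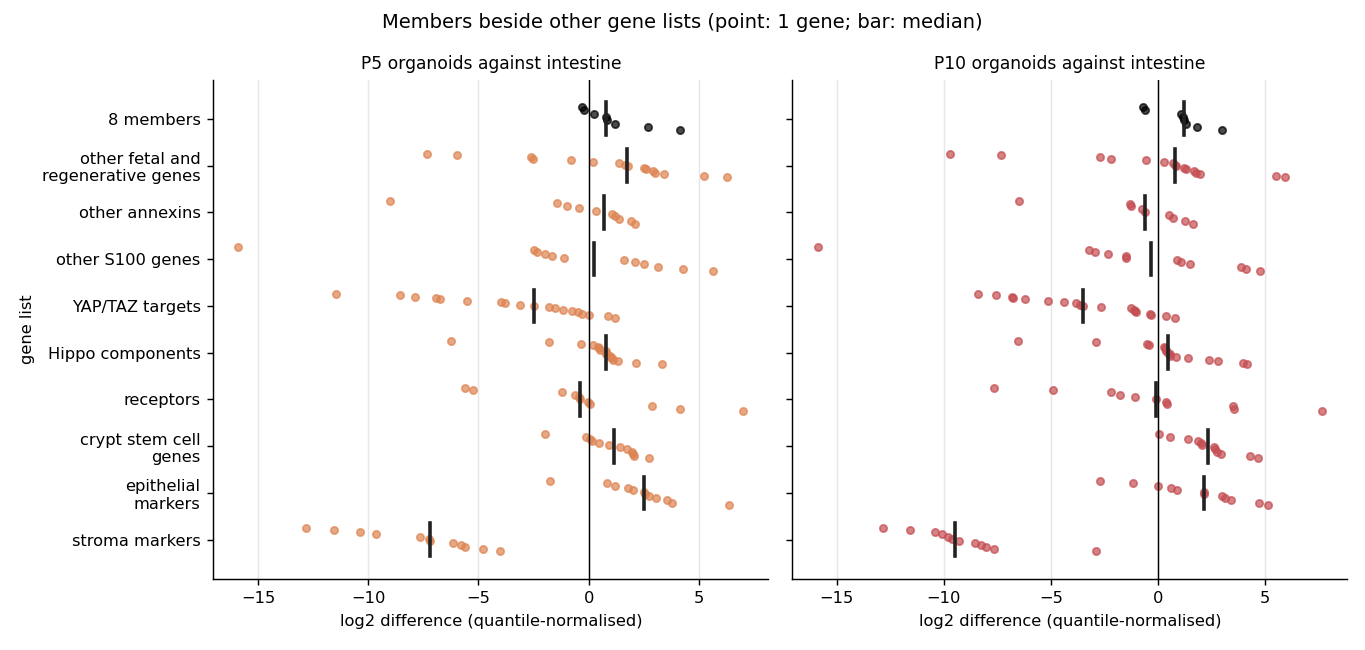
Log2 difference from intestine of each gene with 10 or more reads in either library, by gene list, for P5 and P10 organoids, with bars for list medians. Genes with 0 reads in a library are drawn at their quantile-normalised value. The 8 genes have medians of 0.80 and 1.20, between those of the epithelial markers (2.53 and 2.14) and the stromal markers (-7.22 and -9.46). With libraries under 3 reads set to 3, the stromal medians are -6.06 and -6.87.

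Muscle, the other tissue, gave a different order of the genes. Against muscle, PHLDA1, ANXA3 and CLU were higher by 2-fold or more at P5 (3 of 8, against 33.5% of all genes) and AMOTL2, IL33 and SPP1 at least 2-fold lower (3 of 8, against 27.3%). The SPP1 value rests on 11 and 14 reads, with a log2 difference of -1.24 (-2.61 to 0.00) and a CPM ratio of 0.746 (0.307 to 1.77), and was -0.39 with library totals. In P10 organoids 4 were higher, against 35.2%, and 3 were lower, against 28.5%. Intestine itself had 2 genes at least 2-fold higher than muscle, against 32.3%, and 4 lower, against 27%, of which SPP1 had a CPM ratio of 0.831 (0.380 to 1.84). PHLDA1 was the most separate, with log2 differences from muscle of 7.06 (5.91 to 8.22) in P5 organoids, 5.91 (4.75 to 7.07) in P10 organoids and 2.91 (1.71 to 4.11) in intestine. Levels set against muscle depended strongly on the scaling. With library totals the median of all genes lay above muscle by 1.29 at P5, by 1.41 at P10 and by 1.31 in intestine, in place of 0.13, 0.19 and 0.08, and the share of genes past 2-fold that were higher went from 55.1% to 76.4%, from 55.2% to 75.5% and from 54.5% to 83.3%. On that scale ANXA1 was 0.39 higher in P10 organoids than in muscle, where quantile normalisation gave -1.02, but still less than the median of all genes. AMOTL2 was lower in both cultures than in muscle on every scale, between -1.07 and -2.38 in P5 organoids and between -1.54 and -2.96 in P10 organoids over the 4 other scalings. IL33 was also lower in P5 organoids on each of them, between -0.90 and -2.21. ANXA3 and CLU lay above muscle in P5 organoids throughout, ANXA3 between 1.88 and 3.20 and CLU between 1.38 and 2.70. S100A11 was higher as well, between 0.45 and 1.77, which crosses the 2-fold line.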

How the data were processed

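Total RNA (500 ng) of 1 bovine sample per type was made into QuantSeq 3′ libraries. Bowtie2 served the authors for alignment, against an assembly or a set of representative transcripts. They took both unique and multiple alignments per gene with the Bedtools coverage command, and the deposited values are whole-number read counts without normalisation. Versions, genome build, annotation and use of strand are not given in the sources used here, so no coordinates are given, and reads shared with copies or overlapping genes cannot be separated. In the NCBI RefSeq table of ARS-UCD2.0, ANXA3 and IL33 each overlap 1 uncharacterised gene and the other 6 genes none.

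The study names quantile normalisation with edgeR. Counts of the 22200 genes with a read in any library were therefore quantile-normalised over the 4 libraries, with ties at the mean of their ranks, and analysed on the log2(value + 1) scale. A gene was called at least 2-fold higher or lower where the higher library had at least 10 reads. Intervals of CPM and of shares are exact Clopper-Pearson intervals, those of CPM ratios exact conditional binomial intervals, and those of log2 differences exact Poisson bounds carried through each library's own map from count to value and combined by the MOVER method. Since PCR copies are not independent molecules, they cover counting error only. A library under 3 reads was set to 3 reads (0.169 to 0.232 CPM) for a lower bound of a fold. With 1 library per type nothing was tested.

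The genes and lists were chosen with earlier results of these data known. Lists covered other fetal and regenerative genes, YAP and TAZ targets, Hippo components, annexins, S100 genes, receptors, crypt stem cell genes and markers of epithelium, stroma, smooth muscle, endothelium, immune cells and skeletal muscle. Named are all 8 genes, in each list at most 4 genes with the largest difference of P5 organoids and intestine among those that reached 50 reads in one of them and passed 2-fold the same way in P10 organoids, all receptors with at least 10 reads, and the 2 genes nearest in pattern to each gene with at least 50 reads in its highest library. Marker lists are given by their sums. Another 2 genes that the rule names are not reported here. Alternatives were library totals, totals without RN18S1, TMM and upper-quartile scaling, other pseudocounts and filters, and rows summed by symbol, all expressed at the mean library total. Another 2 were added after seeing the data. The procedure was tested on simulated data, and the normalisation differed from that of limma in 0 of 22200 genes. Scaling factors came from edgeR 4.0.16 and the check from limma 3.58.1, both under R 4.3.3, intervals from scipy 1.17.1 and figures from matplotlib 3.10.9, with pandas 2.3.3, numpy 2.4.6 and Python 3.11.15.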

Additional observations from a re-analysis of the deposited data

How the results depend on the processing

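Counting sets the limit for SPP1, with 11 to 16 reads per library, and for PHLDA1 in muscle. No paired analysis was possible because each sample type has 1 library, and for the same reason no comparison could be made without one of its own libraries. Pseudocounts of 0.1 and 5, no filter on low counts, at least 10 reads in any library, rows summed by symbol and, chosen after seeing the data, normalisation without muscle kept every count within 1.5-fold and every direction of a gene past 2-fold. With library totals, 5 genes were higher and 1 lower in P5 organoids than in muscle, 4 were higher and 0 lower in intestine than in muscle, and ANXA1 in P10 organoids against muscle turned to 0.39. Totals without RN18S1 gave 5 higher in P5 organoids than in muscle, 1 lower in intestine than in muscle, 0 higher in P10 than in P5 organoids, ANXA1 in P10 organoids against muscle at 0.0099 and SPP1 in P10 organoids against intestine at -0.049. TMM and upper-quartile scaling each gave 2 lower genes in P10 organoids than in intestine (AMOTL2 and IL33), 0 higher in P10 than in P5 organoids, and SPP1 in P10 organoids against intestine at -0.22 and -0.23. Upper-quartile scaling also left 1 gene higher in intestine than in muscle. With at least 10 reads in every library, which removes PHLDA1, 3 genes were higher in P10 organoids than in intestine, 1 was lower in P10 than in P5 organoids and 1 was higher in intestine than in muscle. Scaled to the epithelial markers, chosen after seeing the data, 1 gene was higher and 6 lower in P5 organoids than in intestine, 0 higher and 4 lower in P10 organoids, and 1 lower in P10 than in P5 organoids. On that scale CLU was -1.11 in P5 organoids, and in P10 organoids CLU was -0.14, S100A11 -0.77, ANXA3 -0.88, ANXA1 -1.22 and SPP1 -2.26. These follow from subtracting the epithelial median, and for the other scalings the cause was not tested.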

Other observations

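Components of the Hippo pathway, which holds YAP out of the nucleus, were also compared with intestine. Of 17 genes, 5 were at least 2-fold higher and 2 at least 2-fold lower than intestine in P5 organoids, against 24.9% and 22.8% of all genes. The counts at P10 were again 5 and 2, against 28% and 26.1%. Medians of the 17 genes were 0.78 and 0.48. The reads of the paralogous effectors parted. YAP1, named after its values were seen, had 1070 reads in intestine, 755 at P5 and 991 at P10, with 231 in muscle. WWTR1, which encodes TAZ, had 1124, 10 and 7 reads, with 356 in muscle and log2 differences from intestine of -6.25 and -6.52. It was near none in both cultures, as were the stromal markers, and the part of stromal cells in its intestine reads was not tested. TEAD2, a DNA-binding partner of YAP and TAZ, had 213, 356 and 1619 reads in intestine, P5 and P10 organoids, 1.10 and 2.83 higher on the log2 scale. WWC1, the upstream regulator KIBRA, was 1.35 and 1.41 higher. STK4, a Hippo kinase, had 2173, 14834 and 44484 reads, with 14 in muscle, and reached 2509 CPM in P10 organoids. In RefSeq it overlaps no other gene. Whether multiply aligned reads of other transcripts added to the STK4 count was not tested.

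Over the 4 libraries, AMOTL2 and IL33 had the closest patterns of any pair among the 7 genes with at least 50 reads in their highest library. The Euclidean distance of their centred log2 values was 0.21, and 2 of the 15050 genes compared lay nearer to AMOTL2, namely TTLL9 (0.13) and NDUFAF8 (0.20). ANXA3 and CLU were 0.48 apart, with 241 genes nearer to ANXA3. The genes nearest in pattern were FFAR4 (0.36) and KCNK7 (0.59) for PHLDA1, GARNL3 (0.25) and SLC26A6 (0.27) for ANXA1, COASY (0.08) and FBLIM1 (0.10) for ANXA3, CALU (0.06) and CCDC7 (0.06) for CLU, TYW3 (0.09) for IL33, and GLB1L (0.04) and SF3B4 (0.06) for S100A11. Within a distance of 0.5 lay 1 gene for PHLDA1 and 9 for ANXA1, but 269 for ANXA3, 234 for S100A11, 155 for CLU, 131 for IL33 and 76 for AMOTL2. With 4 points per gene, these distances describe the libraries and say nothing of shared control.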
